A study of Mus musculus with 10 samples.

Results

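The Schlafen family was represented by 7 genes, Slfn1, Slfn2, Slfn3, Slfn4, Slfn5, Slfn8 and Slfn9, of 18193 genes measured. Each gene was read from the probe set chosen by its mean signal, the highest over all 10 arrays, and the 4 remaining of 11 probe sets for these genes served as a check. The mean signal over all arrays chose the probe sets and is not a result. The family was taken up with earlier results of these data known, so its pattern is a description of these arrays and not an independent test of an idea. Of the 7 genes, 4 (Slfn2, Slfn4, Slfn8 and Slfn9) exceeded, in at least 1 group mean, the background bound of 2.04 on the log2 scale, which is the brightest value of the bacterial control probe sets dap, lys, phe, thr and trpn on any array. The other three, Slfn1, Slfn3 and Slfn5, had all group means below that bound.

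RNA was measured on 10 Affymetrix arrays, 1 for each transduced sample of mouse bone marrow cells. All groups came from C57BL/6 mice aged 5 to 6 weeks, whose marrow was depleted of lineage-positive cells, selected for Sca1 and cultured with the cytokines SCF and IL-3 at 10 ng/ml each and IL-6 at 20 ng/ml. The groups were 3 samples with the empty GFP vector MigR1, 3 samples with AML1/ETO and 4 samples with W692A, the name the labels give to the second construct. W692A is known from the study as AML1/ETO with 1 residue substituted in its MYND domain, and the study asks what the binding of the corepressors SMRT and N-CoR by that domain adds to the activity of AML1/ETO. From each sample 25000 live GFP+ Lin- Sca1+ cKit+ cells were sorted 48 hours after a second transduction, and 50 ng of RNA was amplified over more than 1 round before biotin labelling. AML1/ETO, the leukaemia fusion of a RUNX DNA-binding domain with the corepressor-binding protein ETO, was thus expressed from a retrovirus in short-term culture, in cells that carry their own normal alleles. The labels name separate transductions, but nothing used here says whether each had its own mice, so p-values measure the spread between these samples.

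Schlafen proteins are a family of vertebrate proteins that restrain growth and viral replication, and many of their genes are induced by type I interferon. The mouse genes form short forms (Slfn1, Slfn2), intermediate forms (Slfn3, Slfn4) and long forms with a helicase-like region (Slfn5, Slfn8, Slfn9), and lie side by side on chromosome 11. Slfn2 is known for keeping T cells and monocytes quiescent, Slfn1 was described as an inhibitor of thymocyte growth, and Slfn4 is a gene of activated myeloid cells.

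AML1/ETO was accompanied by higher signal of Slfn4, Slfn2 and Slfn8, while Slfn9, the neighbour of Slfn8, kept overlapping values in all groups. With W692A these 3 genes lay far below their AML1/ETO level, and Slfn2 alone stood above the GFP arrays with both groups above background. Between AML1/ETO and GFP 5 of 7 members were higher and 0 lower by limma at an adjusted p under 0.05, against 12.9% of all genes higher and 15.8% lower. Their median log2 difference was 1.05, against -0.02 over all genes. Between W692A and GFP 2 of 7 were higher and 0 lower, against 5.45% and 9.07% of all genes, with a median of 0.17 against 0.01. Between W692A and AML1/ETO 0 were higher and 5 lower, against 9.61% and 11.1% of all genes, with a median of -1.06 against 0.03. These comparisons share arrays, so their counts are not independent of each other. Of the 4 members above the bound, 3 were higher with AML1/ETO, but Slfn4 passed the bound through its AML1/ETO mean alone. The count among these 4 is thus a description and not added support. In bulk RNA, fewer cells that express a gene and less RNA per cell cannot be told apart.

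**Figure D1:**
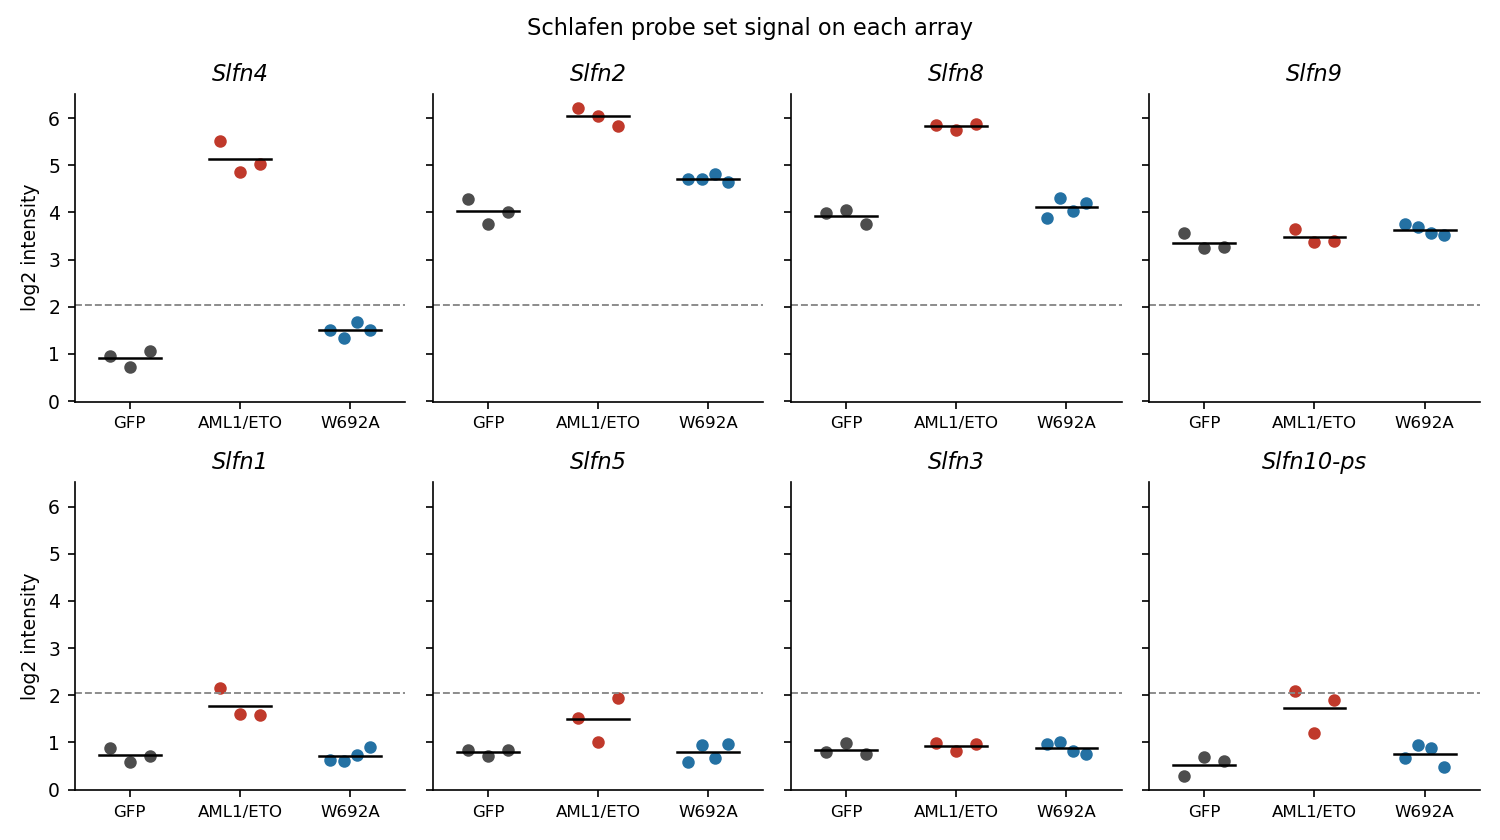
Signal of the chosen probe set of each Schlafen gene (log2 intensity, vertical axis) on every array of the GFP, AML1/ETO and W692A groups; bars are group means and the dashed line is the background bound at 2.04. The AML1/ETO arrays of Slfn4 sit between 4.87 and 5.51 while its other arrays lie below the bound, Slfn2 and Slfn8 are raised less, and the groups of Slfn9 overlap.

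Slfn4 had the widest difference of the family. Its probe set (1427102_at) gave log2 signals of 0.95, 0.72 and 1.05 on the GFP arrays, of 5.51, 4.87 and 5.02 on the AML1/ETO arrays, and of 1.52, 1.34, 1.68 and 1.51 on the W692A arrays. Every GFP and W692A array was below the background bound and every AML1/ETO array far above it, so the gene was measurable in 1 group only. The AML1/ETO arrays were at least 8.51-fold higher than the GFP arrays, taking the latter at the bound, with a fitted log2 difference of 4.22 ± 0.162 (SE; n = 3 and 3; limma adjusted p = 7.35e-11). It ranked 35 from the top of 18193 genes by that difference. W692A arrays fell below AML1/ETO by at least 8.51-fold as well, with a fitted log2 difference of -3.62 ± 0.151 (SE; n = 4 and 3; limma adjusted p = 7.98e-10). The gap of 0.60 ± 0.151 between W692A and GFP (limma adjusted p = 0.0137) is between values that all lie below the bound, and no fold is given. That call was lost without the second GFP replicate, leaving 1 of the 2 members called, with every dimmer value raised to the bound, and with the Gapdh covariate described below. A further probe set that the annotation assigns to both Slfn3 and Slfn4 (1450322_s_at) stayed below the bound in all groups and was not used for either gene.

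Slfn2, the gene mutated in mice that lose lymphocyte and monocyte quiescence, was above background on all 10 arrays. Its log2 signals were 4.30, 3.76 and 4.00 with GFP, 6.22, 6.05 and 5.84 with AML1/ETO, and 4.72, 4.70, 4.82 and 4.64 with W692A. The groups did not overlap, and W692A lay between GFP and AML1/ETO. AML1/ETO exceeded GFP by 2.02 ± 0.145 on the log2 scale, 4.05-fold (limma adjusted p = 7.38e-08). W692A exceeded GFP by 0.70 ± 0.136, 1.62-fold (limma adjusted p = 0.00266), and was below AML1/ETO by 2.50-fold, a log2 difference of -1.32 ± 0.136 (limma adjusted p = 6.86e-06). Thus each neighbour in the order GFP, W692A, AML1/ETO differed by more than the spread between arrays, whose SD was 0.267, 0.0751 and 0.192 in that order. The W692A and GFP groups also differed in a control of RNA length, the gap between the 3′ and 5′ probe sets of Gapdh, which was 4.83 to 4.99 with GFP and 3.81 to 4.17 with W692A. With that gap as a covariate the Slfn2 difference between W692A and GFP was 0.37 (limma adjusted p = 0.541), and no member was called. The gap ranges of these groups did not overlap, so this fit can hardly tell the gap from the construct.

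Slfn8, a long form with a helicase-like region, was likewise above background on all arrays. Its log2 signals were 3.99, 4.05 and 3.76 with GFP, 5.85, 5.75 and 5.88 with AML1/ETO, and 3.88, 4.31, 4.02 and 4.21 with W692A. The AML1/ETO arrays stood apart from the others, and the GFP and W692A arrays overlapped. AML1/ETO exceeded GFP by 1.89 ± 0.134, 3.72-fold (limma adjusted p = 6.25e-08). W692A lay below AML1/ETO by 3.30-fold, a log2 difference of -1.72 ± 0.126 (limma adjusted p = 2.23e-07). Between W692A and GFP the difference was 0.17, with a 95% interval of -0.10 to 0.44 (limma adjusted p = 0.448), which does not show that the groups are alike. The order of the levels was therefore AML1/ETO above the other groups, which did not differ beyond their spread.

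Slfn9, a long form next to Slfn8, gave log2 signals of 3.56, 3.24 and 3.26 with GFP, 3.66, 3.38 and 3.40 with AML1/ETO, and 3.74, 3.70, 3.57 and 3.51 with W692A. All values lay above the bound and the groups overlapped pairwise. The difference between AML1/ETO and GFP was 0.13, with a 95% interval of -0.15 to 0.41 (limma adjusted p = 0.580), so a rise of the size seen for Slfn8 lies outside that interval. W692A exceeded GFP by 0.28 ± 0.122 (limma adjusted p = 0.158), and W692A and AML1/ETO differed by 0.15 ± 0.122 (limma adjusted p = 0.476). The mean of both Slfn9 probe sets, of which 1458803_at lay below the bound on all arrays, passed between W692A and GFP with a limma adjusted p of 0.0466. No neighbours in the order GFP, AML1/ETO, W692A differed beyond their spread with the chosen probe set.

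**Figure D2:**
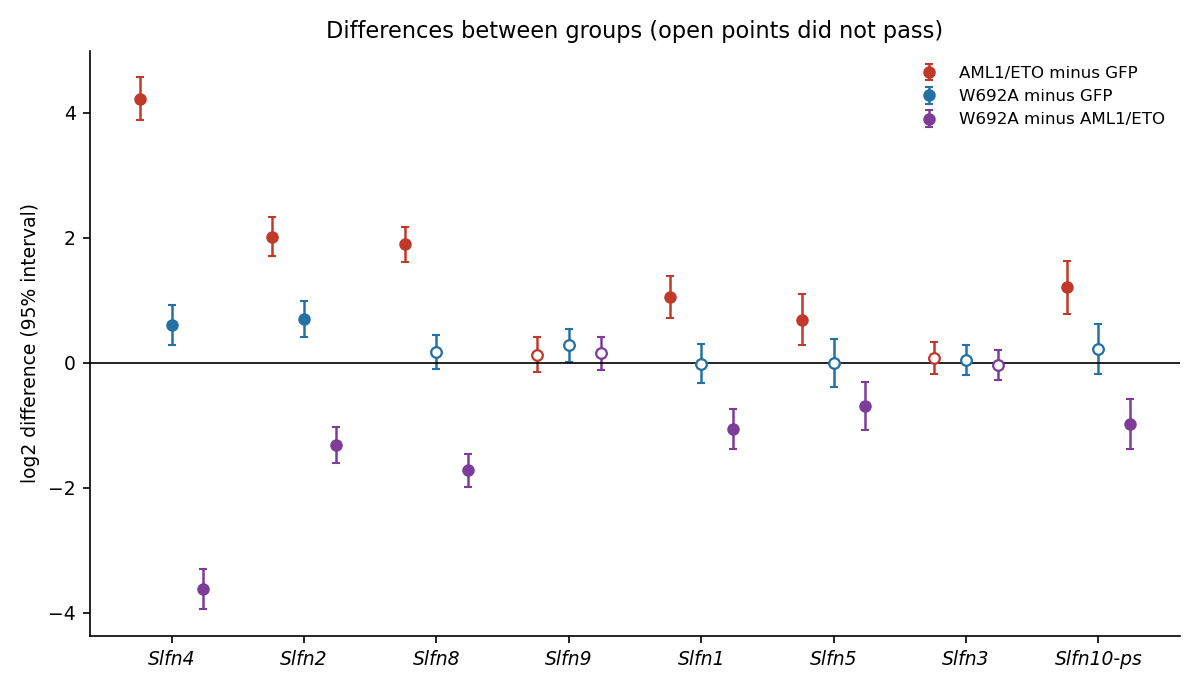
Fitted log2 differences (vertical axis) between groups for each Schlafen gene, with 95% intervals from limma; filled points had an adjusted p under 0.05. Slfn4 is highest between AML1/ETO and GFP at 4.22, the Slfn9 and Slfn3 intervals for that comparison span 0, and the points of Slfn1, Slfn5, Slfn3 and the pseudogene Slfn10-ps rest on signals of which all but 1 AML1/ETO array each of Slfn1 and Slfn10-ps lie below the background bound.

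The signal of each probe set also depends on its probes, so only shifts between groups can be compared across genes. Within an array, Slfn8 minus Slfn9 was 0.43 to 0.81 on the log2 scale with GFP, 2.19 to 2.49 with AML1/ETO and 0.14 to 0.69 with W692A. The ranges with AML1/ETO lay apart from those of the other groups. Slfn2 minus Slfn8 was -0.28 to 0.30 with GFP, -0.04 to 0.38 with AML1/ETO and 0.39 to 0.84 with W692A. Here the W692A arrays were the highest, but their lowest value of 0.386 nearly met the highest AML1/ETO value of 0.378. Both pairs were picked after their values were seen and are given without a test.

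With AML1/ETO against GFP, Slfn4, Slfn2 and Slfn8 were higher, while Slfn9, the neighbour of Slfn8, did not pass. The sequences just upstream of these 4 genes are therefore shown. Each is the 250 bases before the RefSeq start in build GRCm38.p6, 5′ to 3′ on the gene's own strand, and for Slfn8, which has several listed starts, before the first. Capitals mark matches to the interferon-stimulated response element core GAAANNGAAA or to the RUNX motif TGTGGT, both searched on both strands.
Slfn4, chr11:83174936-83175185, plus strand: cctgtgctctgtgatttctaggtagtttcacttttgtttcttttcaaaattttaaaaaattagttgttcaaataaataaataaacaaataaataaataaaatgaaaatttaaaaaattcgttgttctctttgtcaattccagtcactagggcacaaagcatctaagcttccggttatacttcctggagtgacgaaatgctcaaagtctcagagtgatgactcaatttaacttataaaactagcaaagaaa
Slfn2, chr11:83064862-83065111, plus strand: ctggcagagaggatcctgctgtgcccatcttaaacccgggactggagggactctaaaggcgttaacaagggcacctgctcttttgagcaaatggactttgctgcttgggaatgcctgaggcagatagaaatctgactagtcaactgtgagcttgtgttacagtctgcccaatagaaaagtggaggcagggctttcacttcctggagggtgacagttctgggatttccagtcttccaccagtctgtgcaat
Slfn8, chr11:83020811-83021060, minus strand: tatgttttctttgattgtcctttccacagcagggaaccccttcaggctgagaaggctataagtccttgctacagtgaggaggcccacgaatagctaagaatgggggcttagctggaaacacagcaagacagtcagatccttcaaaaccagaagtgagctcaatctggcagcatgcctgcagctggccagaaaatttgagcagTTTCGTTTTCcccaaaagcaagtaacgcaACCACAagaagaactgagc
Slfn9, chr11:82991831-82992080, minus strand: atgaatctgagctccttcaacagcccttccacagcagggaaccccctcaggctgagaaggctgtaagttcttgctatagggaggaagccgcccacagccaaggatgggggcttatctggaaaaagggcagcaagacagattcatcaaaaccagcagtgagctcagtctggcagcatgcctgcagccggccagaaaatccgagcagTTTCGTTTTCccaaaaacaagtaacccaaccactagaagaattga

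The Slfn8 sequence held 1 match to the interferon element core on the reverse strand, 48 to 39 bases before the start, and 1 match to the RUNX motif TGTGGT on the reverse strand, 19 to 14 bases before it. The Slfn9 sequence held the same 10 letters of the interferon core, 45 to 36 bases before its start, and no match to TGTGGT. The upstream sequences of Slfn4, Slfn2, Slfn1 and Slfn3 held no match to these motifs in this window, and that of Slfn5 held 1 interferon core, GAAAAAGAAA, 155 to 146 bases before its start. No member held the STAT motif TTCNNNGAA or the second RUNX motif TGCGGT. Among 32851 listed promoters of the same length, 2.98% held the interferon core, 7.02% the STAT motif, 14.0% TGTGGT and 5.10% TGCGGT. Aligned end to end, the Slfn8 and Slfn9 sequences were identical at 210 of 262 aligned positions (80.2%), while the other 20 pairs of member sequences were identical at 45.5% to 53.4%. A match is a description of letters, and whether any factor binds there was not tested.

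Slfn1, a short form described as an inhibitor of thymocyte growth, was read at the edge of background. Its probe set (1418612_at) gave 0.88, 0.59 and 0.72 with GFP, 2.16, 1.60 and 1.58 with AML1/ETO, and 0.64, 0.60, 0.73 and 0.91 with W692A on the log2 scale. The AML1/ETO arrays did not overlap the others, but 1 of 3 passed the bound. The fitted differences were 1.05 ± 0.158 between AML1/ETO and GFP (limma adjusted p = 0.000104) and -1.06 ± 0.148 between W692A and AML1/ETO (limma adjusted p = 0.000103), with no fold given. Both calls were lost when dimmer values were raised to the bound. The other Slfn1 probe set (1447614_at) differed by 0.06 between AML1/ETO and GFP (limma adjusted p over all probe sets = 0.886), so the probe sets of Slfn1 disagreed.

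Slfn5, a long form that is induced by interferon in many cell types, lay below the bound on all arrays. Its log2 signals were 0.85, 0.72 and 0.84 with GFP, 1.52, 1.00 and 1.95 with AML1/ETO, and 0.60, 0.95, 0.67 and 0.97 with W692A. The AML1/ETO arrays were the highest but spread by an SD of 0.475. The fitted difference of 0.69 ± 0.191 between AML1/ETO and GFP (limma adjusted p = 0.0125) fell short of the threshold without the third AML1/ETO replicate, and with the spike-in signal as a covariate, with a limma adjusted p of 0.175 at most. Between W692A and AML1/ETO the difference was -0.70 ± 0.179 (limma adjusted p = 0.0112), a call that was lost under the same settings and with the Gapdh covariate. Of the other 2 Slfn5 probe sets, 1456288_at differed by 0.71 (limma adjusted p over all probe sets = 0.000647) and 1458458_at by 0.13 (0.572), both below the bound. Slfn3, an intermediate form known from T cells, gave 0.80, 0.99 and 0.75 with GFP, 0.98, 0.82 and 0.98 with AML1/ETO, and 0.97, 1.01, 0.83 and 0.75 with W692A. All were below the bound, the groups overlapped, and adjusted p-values from limma ran from 0.736 to 0.890. With both genes under the bound, no fold is given for either.

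On chromosome 11 the RefSeq table places the family in the order Slfn5os, Slfn5, Slfn9, Slfn8, Slfn10-ps, Slfn2, Slfn1, Slfn4, Slfn3 and Slfn14, of which Slfn14 was not analysed here. Slfn9 thus lies between Slfn5 and Slfn8. Slfn10-ps, a pseudogene between Slfn8 and Slfn2, gave 0.29, 0.68 and 0.60 with GFP, 2.08, 1.21 and 1.90 with AML1/ETO, and 0.68, 0.95, 0.89 and 0.48 with W692A. Its fitted difference was 1.21 ± 0.201 between AML1/ETO and GFP (limma adjusted p = 0.000256). Between W692A and AML1/ETO it was -0.98 ± 0.188 (limma adjusted p = 0.00148). All its arrays but 1 with AML1/ETO lay below the bound, and neither difference passed when dimmer values were raised to it. Slfn5os, an RNA antisense to Slfn5 by name, and Slfnl1, a Schlafen-like gene on chromosome 4, were below the bound and passed no test. The 5 nearest measured genes on each side were read as a local comparison. Of these 10, 4 exceeded the bound in some group mean, and the others stayed below it, so their changes cannot be read as folds. Between AML1/ETO and GFP 1 of the 10 was higher and 1 lower, against 12.9% and 15.8% of all genes. The differences ran from -0.53 to 0.87, with a median of 0.03. The higher one, the muscle chaperone gene Unc45b, was below the bound in both groups (0.87 ± 0.160, limma adjusted p = 0.000574). The lower one was the ribosome biogenesis gene Nle1 (-0.53 ± 0.172, limma adjusted p = 0.0294). Between W692A and GFP 1 was lower, the DNA repair gene Rad51d (-0.43 ± 0.135, limma adjusted p = 0.0450), and 0 were higher. Of all genes, 9.07% were lower and 5.45% higher in that comparison. In this cluster the rise with AML1/ETO was measured above background for Slfn8, Slfn2 and Slfn4 alone.

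**Figure D3:**
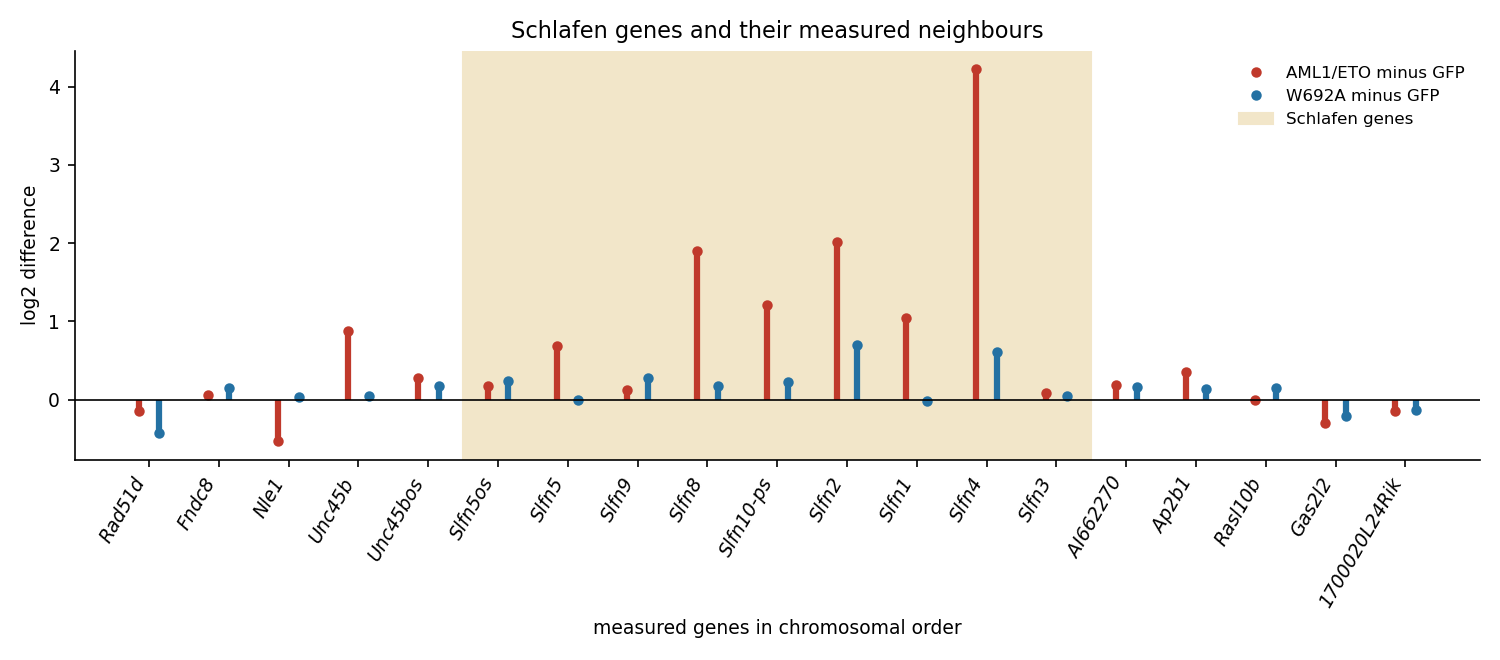
Log2 differences from GFP (vertical axis) for the measured Schlafen genes (shaded) and the 5 nearest measured genes on each side, in chromosomal order with even spacing. The neighbours stay between -0.53 and 0.87 with AML1/ETO, while Slfn8, Slfn2 and Slfn4 reach 1.89, 2.02 and 4.22 and Slfn9 stays at 0.13. Of the 10 neighbours, 4 exceeded the background bound in some group mean.

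Genes whose pattern over the 10 arrays was most like that of each member were picked by Pearson correlation among 8816 other genes that exceeded the bound in some group mean. The arrays form 3 groups, so a high value mostly reflects group means, and no p is given. For Slfn8 they were Oasl1 (r = 0.994), Ifit1 (0.992) and Rtp4 (0.992), all interferon-induced genes. For Slfn4 they were Ifit1bl1 (0.994), of the same family as Ifit1, Kdelr3 (0.993), a receptor that returns proteins to the endoplasmic reticulum, and Il1a (0.993), an inflammatory cytokine. For Slfn2 they were Maged2 (0.997), Mt2 (0.992), a metallothionein, and Nagk (0.991), a sugar kinase. For Slfn9 they were Lpcat1 (0.951), Ankhd1 (0.940) and Atp5md (0.929).

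Since these genes were picked for their likeness, their group means are given without a test. Mt2 stood 11.2-fold above GFP with AML1/ETO and 2.46-fold above it with W692A. Maged2 stood at least 8.82-fold above GFP with AML1/ETO and at least 1.99-fold above it with W692A. For Nagk these folds were 2.54 and 1.35. That W692A lay between GFP and AML1/ETO for these genes, as for Slfn2, follows from how they were picked. Oasl1, Ifit1 and Rtp4, the genes nearest to Slfn8, had log2 differences of 0.39, 0.41 and 0.17 between W692A and GFP. Oasl1 lay below the bound on every GFP and W692A array, so its difference cannot be read as a fold.

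Because Schlafen genes are known as interferon-induced, the rest of that pathway was read from lists. These lists were chosen with earlier results of these data known, so their counts are a description and not added support. The interferon genes themselves were at background: of the ligands listed, 5 were measured (Ifnb1, Ifna1, Ifna2, Ifna4 and Ifng), all lay below the bound in every group mean, and none passed in any comparison. Among 16 receptor and signalling genes 7 were higher and 3 lower with AML1/ETO against GFP, with a median of 0.24. Of all genes, 12.9% were higher and 15.8% lower in that comparison. Irf9, the DNA-binding part of the complex that switches on interferon-induced genes, rose 2.99-fold (1.58 ± 0.150, limma adjusted p = 1.17e-06). Its partner Stat2 rose at least 1.30-fold, the transcription factor Irf7 at least 2.33-fold, and the receptor chain Ifnar1 1.88-fold (limma adjusted p = 4.26e-05, 2.68e-06 and 0.00147). Irf3, Irf1 and the interferon gamma receptor chain Ifngr2 fell by 0.86, 0.72 and 0.49 on the log2 scale (limma adjusted p = 0.000334, 0.000134 and 0.0454). With W692A against GFP 1 of the 16 was higher and 3 were lower, against 5.45% and 9.07% of all genes. Irf9 there differed from GFP by -0.03 (limma adjusted p = 0.921). Stat2 and Irf7 were below the bound on every GFP and W692A array. With W692A against AML1/ETO 2 of the 16 were higher and 6 lower, against 9.61% and 11.1% of all genes.

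The effectors moved with AML1/ETO in the same direction as Slfn4, Slfn2 and Slfn8. Of 23 measured, 22 were higher and 1 lower than GFP, against 12.9% and 15.8% of all genes, with a median log2 difference of 1.82. The antiviral RNA-binding gene Ifit1 rose 40.4-fold, the viral replication inhibitor Rsad2 21.9-fold and the chaperone Rtp4 10.3-fold (limma adjusted p = 2.41e-11, 4.17e-09 and 5.38e-10). The lower one was the nucleotide kinase gene Cmpk2 (limma adjusted p = 0.0467), which was below the bound on every AML1/ETO array and at it with GFP, so that no fold can be read. With W692A against GFP 3 effectors were higher, 2 lower and 18 did not pass, with a median of 0.04. Of all genes, 5.45% were higher and 9.07% lower there. Of the 23, 8 had no GFP or W692A array above the bound and cannot show a fold there, and the other 15 had a median of -0.09. The higher ones were Rsad2 (1.88-fold), the RNA-activated kinase gene Eif2ak2 (1.66-fold) and the tethering protein gene Bst2 (1.46-fold), with limma adjusted p = 0.0150, 0.0392 and 0.0325. Against AML1/ETO 22 of the 23 were lower with W692A, with a median of -1.92, where 11.1% of all genes were lower. Of 6 feedback inhibitors 2 were higher and 1 lower with AML1/ETO, against the same 12.9% and 15.8% of all genes. The largest rise among them was that of the ISG15 protease gene Usp18, 7.98-fold (limma adjusted p = 8.72e-11). With W692A against GFP 1 feedback inhibitor was higher, the cytokine inhibitor Socs3 (1.44-fold, limma adjusted p = 0.0249), and 0 were lower. Of 18 listed effectors with a promoter sequence, 7 held the interferon core in the same 250 bases, against 3.46% of 27025 genes.

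**Figure D4:**
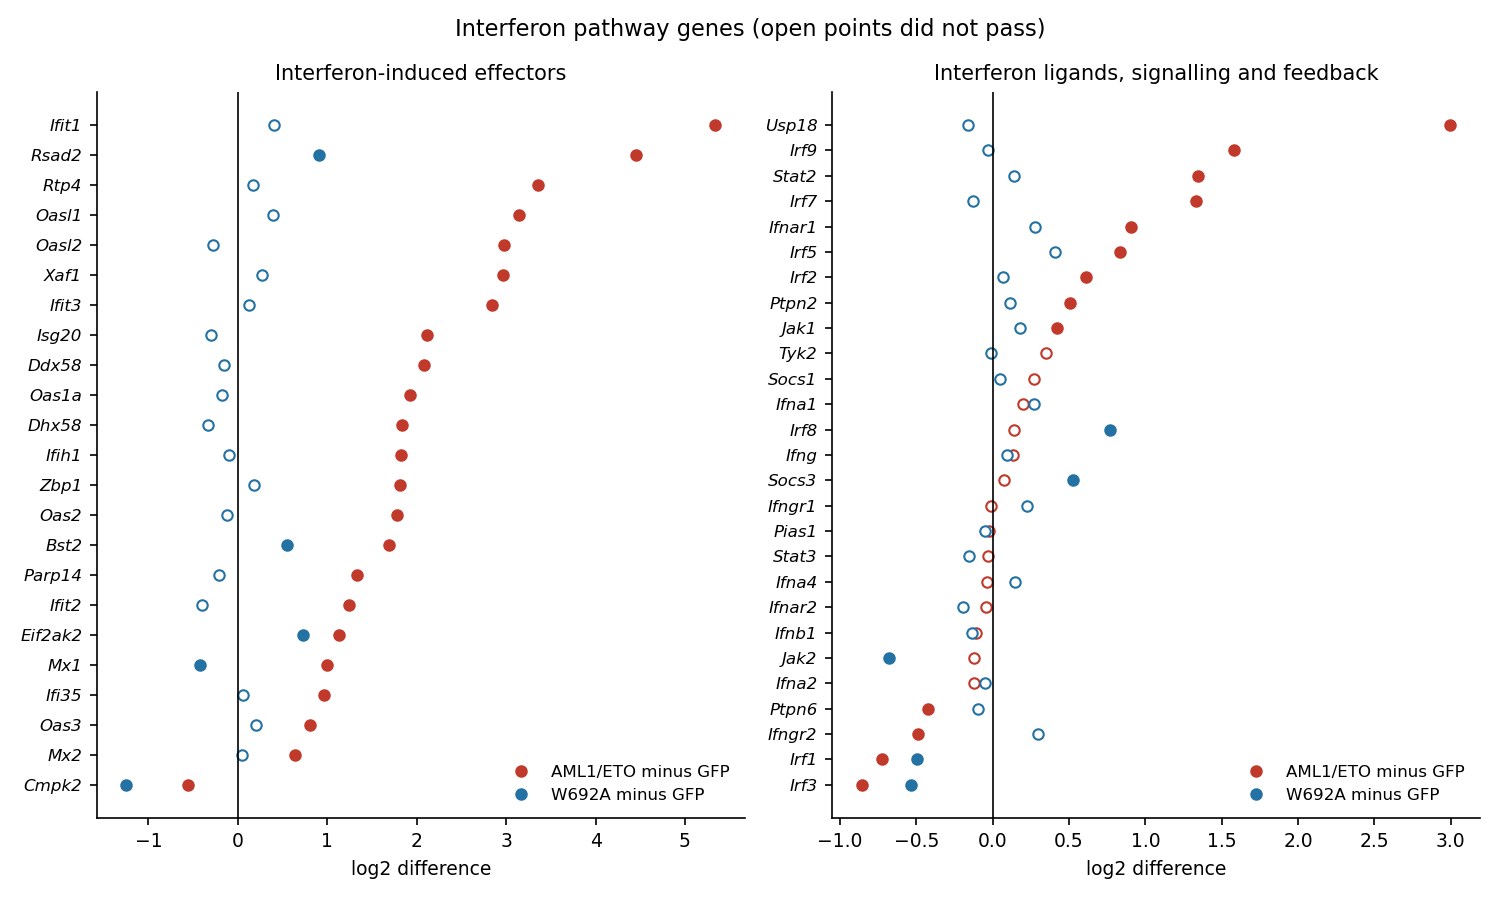
Log2 differences from GFP (horizontal axis) with AML1/ETO and with W692A for 23 interferon-induced effectors (left) and for ligands, signalling and feedback genes (right); filled points had a limma adjusted p under 0.05. With AML1/ETO 22 effectors are higher and Cmpk2 is lower, against 12.9% and 15.8% of all genes. With W692A most points lie near 0.

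Slfn2 is known for quiescence, so a list of lymphocyte quiescence genes and a list of cyclins and growth genes were read beside it. Of 13 lymphocyte quiescence genes, 8 of them above the bound, 5 were higher and 1 lower with AML1/ETO against GFP, with a median of 0.30. Cdkn1b, among the higher ones, lay below the bound on every array. Of all genes, 12.9% were higher and 15.8% lower in that comparison. The shares were 5.45% and 9.07% with W692A against GFP, and 9.61% and 11.1% with W692A against AML1/ETO. The antiproliferative genes Tob1 and Btg1 rose 2.52-fold and 2.09-fold and the transcription factor gene Foxp1 1.86-fold (limma adjusted p = 0.000270, 0.000113 and 0.000149), and Tsc22d3, below the bound on every AML1/ETO array, was lower (limma adjusted p = 0.0130). With W692A against GFP 2 were higher, Foxp1 and Foxo3, and 1 was lower. Against AML1/ETO, 1 was higher with W692A and 3 were lower. Of 8 cyclin and growth genes 5 were lower and 0 higher with AML1/ETO, with a median of -0.63. Among them the G1 cyclin gene Ccnd1 fell 3.77-fold, the S phase cyclin gene Ccna2 2.79-fold and Myc 2.34-fold (limma adjusted p = 6.13e-07, 1.56e-07 and 2.46e-05). With W692A against GFP 1 was higher and 3 were lower. Against AML1/ETO, 4 of these 8 were higher with W692A and 0 lower.

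Other cell types can carry Schlafen RNA, above all myeloid and T cells, so their markers were read in the same arrays. Counts of passing markers are between AML1/ETO and GFP, where 12.9% of all genes were higher and 15.8% lower. The summed linear intensity of 11 monocyte, macrophage and dendritic cell markers was 338 to 428 with GFP, 874 to 1186 with AML1/ETO and 705 to 791 with W692A, with 5 higher and 2 lower between AML1/ETO and GFP. The higher ones included Cd14 (7.07-fold), Adgre1 (5.47-fold), Lyz2 (4.94-fold) and Csf1r (1.35-fold), while Ccr2, Fcgr1 and Itgam were below the bound on every array. The lower ones were Flt3 (1.95-fold, limma adjusted p = 2.80e-05) and Cx3cr1 (limma adjusted p = 0.0269), whose group means all lay below the bound. The 12 neutrophil markers summed to 2757 to 3538 with GFP, 1876 to 3287 with AML1/ETO and 1481 to 2056 with W692A, with 2 higher and 7 lower in AML1/ETO. Lcn2 (8.46-fold) and Mmp8 (at least 2.56-fold) were the higher ones. The 10 T and NK cell markers summed to 198 to 285 with GFP, 68.6 to 89.1 with AML1/ETO and 82.9 to 110 with W692A, with 0 higher and 3 lower in AML1/ETO. Among them Cd2, Cd28, Cd3d, Cd3e, Cd3g and Ncr1 were below the bound on every array. The sum of 8 mast cell, basophil and eosinophil markers was 580 to 815 with GFP, 1526 to 2695 with AML1/ETO and 700 to 830 with W692A, with 3 higher and 3 lower in AML1/ETO. Among them the mean log2 signal of Cpa3 was 7.43 with GFP and 10.5 with AML1/ETO. The eosinophil genes Epx, Prg2 and Prg3 had means of 7.95, 6.05 and 7.34 with GFP and 4.19, 3.94 and 4.34 with AML1/ETO. The sum of 9 stem and multipotent progenitor markers was 285 to 379 with GFP, 920 to 1036 with AML1/ETO and 515 to 636 with W692A, with 6 higher and 1 lower in AML1/ETO. Kit, a marker of the gate, was below the bound on every array although the cells were sorted for cKit. A signal below the bound therefore does not show that a gene is absent. The sums of the B cell, erythroid and megakaryocyte markers were 69.7 to 88.2, 158 to 225 and 307 to 422 with GFP. They were 68.8 to 121, 63.8 to 104 and 940 to 975 with AML1/ETO, and 54.9 to 73.0, 96.0 to 132 and 301 to 442 with W692A. Of 7 megakaryocyte and platelet markers 2 were higher in AML1/ETO, Pf4 (3.64-fold) and Ppbp (4.73-fold), and 5 were lower. A linear sum weighs the brightest markers most, here Cpa3 among the mast cell, basophil and eosinophil markers and Pf4 among the megakaryocyte markers. The sums of these lists and of the monocyte and stem cell lists were highest with AML1/ETO. The part of such cells in the Schlafen differences was not tested.

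Signals correlated at 0.984 to 0.992 between arrays of 1 group and at 0.892 to 0.965 between groups, over the 8820 genes above the bound. The Gapdh gap between 3′ and 5′ probe sets was 4.08, 4.01 and 5.04 on the AML1/ETO arrays, against 4.83 to 4.99 with GFP. On the third of these arrays Slfn4, Slfn2 and Slfn8 gave 5.02, 5.84 and 5.88. The mean 18S ribosomal RNA control signal was 7.74 to 8.13 with GFP, 8.18 to 8.65 with AML1/ETO and 8.56 and above with W692A. The part of these controls in the Schlafen differences was not tested beyond the Gapdh and spike-in covariates. Between W692A and GFP the Gapdh gap can hardly be told from the construct.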

How the data were processed

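RNA of 10 samples was measured on Affymetrix arrays. The authors deposited 1 log2 intensity for each probe set on each array, and the submitters' processing notes name RMA without a version. No source states the base: the highest value, 12.77, equals 6967 in base 2, whereas read as a natural logarithm it would be 350219, more than the 65535 a 16-bit scanner records. RMA gives all arrays 1 intensity distribution, which hides differences in total RNA. Of 45101 probe sets, 64 controls and 932 with several symbols were left out, and 34945 had 1 symbol. Of these, 34741 symbols were updated by gene identifier to GRCm38.p6, giving 18193 genes, each read from its brightest probe set.

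Groups were taken from the sample labels and compared in 1 fit with limma (version 3.58.1, R 4.3.3; lmFit and eBayes, 7 residual and 7.53 prior degrees of freedom), with Benjamini-Hochberg adjustment over all genes and a threshold of 0.05. The fit was tested on simulated data. Where any array of the dimmer group lay below the bound, that group's values were raised to the bound, giving "at least" folds. The number of arrays limits the precision.

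The members, lists and alternatives were chosen with earlier results of these data known. Named genes were all members, up to 3 passing genes per direction of each pathway list by the AML1/ETO difference (with Stat2, Irf9, Irf7 and Ifit1 always), the 3 most correlated genes of each member above the bound, and the 5 nearest measured genes on each side. Other genes named for W692A were chosen after their values were seen. Promoters came from RefSeq (GRCm38.p6). Proteins and probe sequences were not used here, so cross-hybridisation between members was not tested. Alternatives covered normalization, dim genes, background, probe sets, minimum fold, covariates, array weights, variance prior, samples in the fit, the replicate block and each array left out.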

Additional observations from a re-analysis of the deposited data

How the results depend on the processing

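Of 23 alternatives, 10 of which left out 1 array, none took Slfn2, Slfn4 or Slfn8 across the threshold between AML1/ETO and GFP or between W692A and AML1/ETO. Their log2 differences between AML1/ETO and GFP ran from 1.82 to 2.17, 3.09 to 4.36 and 1.79 to 1.98. The 5 members called in those comparisons became 3 without the dimmest 40% of genes (4 members tested) and 3 when dimmer values were raised to the bound (5 members tested), in both comparisons, since Slfn1 and Slfn5 lie at background. Between W692A and GFP the 2 members called became 3 with the mean of probe sets (Slfn9 added), 1 with values raised to the bound and 0 with the Gapdh covariate, and ran from 1 to 2 when arrays were left out (1 without the second GFP replicate). No called value changed sign. Samples of the same number in different groups had deviation correlations of -0.12 to 0.44, above 0.1 in 4 of 9 pairs, among them the 3 pairs of replicate 1. Pairs of unlike number were not read beside them, so these values cannot decide whether the numbers pair the samples. The main fit did not pair them, and a shared day cannot be told from these data. With the replicate block the members called were 5, 2 and 5, as without it, and the fit absorbed the fourth W692A replicate. Genes called were 5207 between AML1/ETO and GFP, 2642 between W692A and GFP and 3765 between W692A and AML1/ETO. They were 8621, 4006 and 6023 with every probe set tested, 506 for W692A and GFP with the Gapdh covariate, and 1637 and 2317 for W692A against GFP and against AML1/ETO with a minimum of 1.5-fold. The causes were not tested. Signals below the bound limit what can be read of Slfn1, Slfn3 and Slfn5.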
